A study of Mus musculus with 6 samples.

Results

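The genes described here encode the proteins of the mitochondrial ribosome. They were taken by symbol: every gene whose single symbol in the platform annotation starts with Mrpl or Mrps followed by a digit, with the probe of highest mean over 6 arrays kept for each gene. This gave 77 genes of the 19929 genes named on the array, 48 with an Mrpl symbol (large subunit) and 29 with an Mrps symbol (small subunit). Expression was measured on 6 single-colour Affymetrix arrays of total RNA from AI4 CD8 T cells, whose transgenic T cell receptor recognises a beta cell antigen, sorted from pooled pancreata with an antibody to CD8 and the MimA2/H-2Db tetramer. In 3 arrays the cells came from Rip-B7xAI4 mice, which carry B7x under the rat insulin promoter besides the AI4 receptor and were resistant to type 1 diabetes (T1D). In the other 3 arrays they came from AI4 mice, which carry the receptor alone and developed T1D. Both genotypes were on a C57BL/6.H2g7/g7 background, and the labels give neither age nor the number of mice pooled per array. The transgene and the disease state of the mice cannot be told apart in this design, and in sorted bulk cells fewer cells of a type and less RNA per cell cannot be told apart.

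Mitochondrial ribosomes translate the few proteins encoded in mitochondrial DNA, all of them subunits of the respiratory chain and the ATP synthase. Their RNA is made in the mitochondrion, whereas every one of their proteins is encoded in the nucleus, made in the cytosol and imported. Many of these proteins have a counterpart in the bacterial ribosome and the rest were gained in mitochondria. Activated T cells are known to enlarge their mitochondria and their translation machinery as they start to divide, and block of mitochondrial translation is known to impair effector functions of cytotoxic T cells.

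Between Rip-B7xAI4 and AI4 cells, no mitochondrial ribosomal protein gene passed the test, and differences above and below 0 were about equally common. Of the 77 genes, 75 lay above the limit for dim genes and were tested. The test was limma on log2 values, two-sided, with p adjusted by Benjamini and Hochberg over 13950 genes and 0.05 as the limit. In it 0 of 75 genes were called, against 0.00717% of all genes tested, which is 1 gene (the chemokine gene Ccl3). The lowest adjusted p of a mitochondrial ribosomal protein gene was 0.462 by limma. At an unadjusted p under 0.05, 3 of 75 genes (4%) were higher in Rip-B7xAI4, namely Mrps21, Mrpl19 and Mrpl22, against 5.56% of all genes tested. On the same rule 1 of 75 (1.33%) was lower, Mrpl2, against 3.17%. For 4 of 75 genes each Rip-B7xAI4 value exceeded each AI4 value (5.33%, against 5.99% of all genes tested), and for 2 each was below (2.67%, against 11.9%). These shares were near or under those of all genes.

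The differences, always Rip-B7xAI4 minus AI4 on the log2 scale, had a median of 0.01 over the 75 genes and ran between -1.16 for Mrps17 and 1.65 for Mrpl42. The median over all genes tested was -0.10. A difference was above 0 in 39 of 75 genes (52%), against 39% of all genes tested, and its size was under 0.5 in 62 genes and over 1 in 5. How small a change these arrays could show is given by the 95% interval of each difference, which reached a median of 0.75 to either side and ran between 0.40 and 2.35. For 37 of 75 genes the interval still held a difference of 1 or -1, a doubling or halving. With 3 arrays per group a change of that size therefore lay within the error for these genes, and the absence of calls does not show equal levels.

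**Figure D1:**
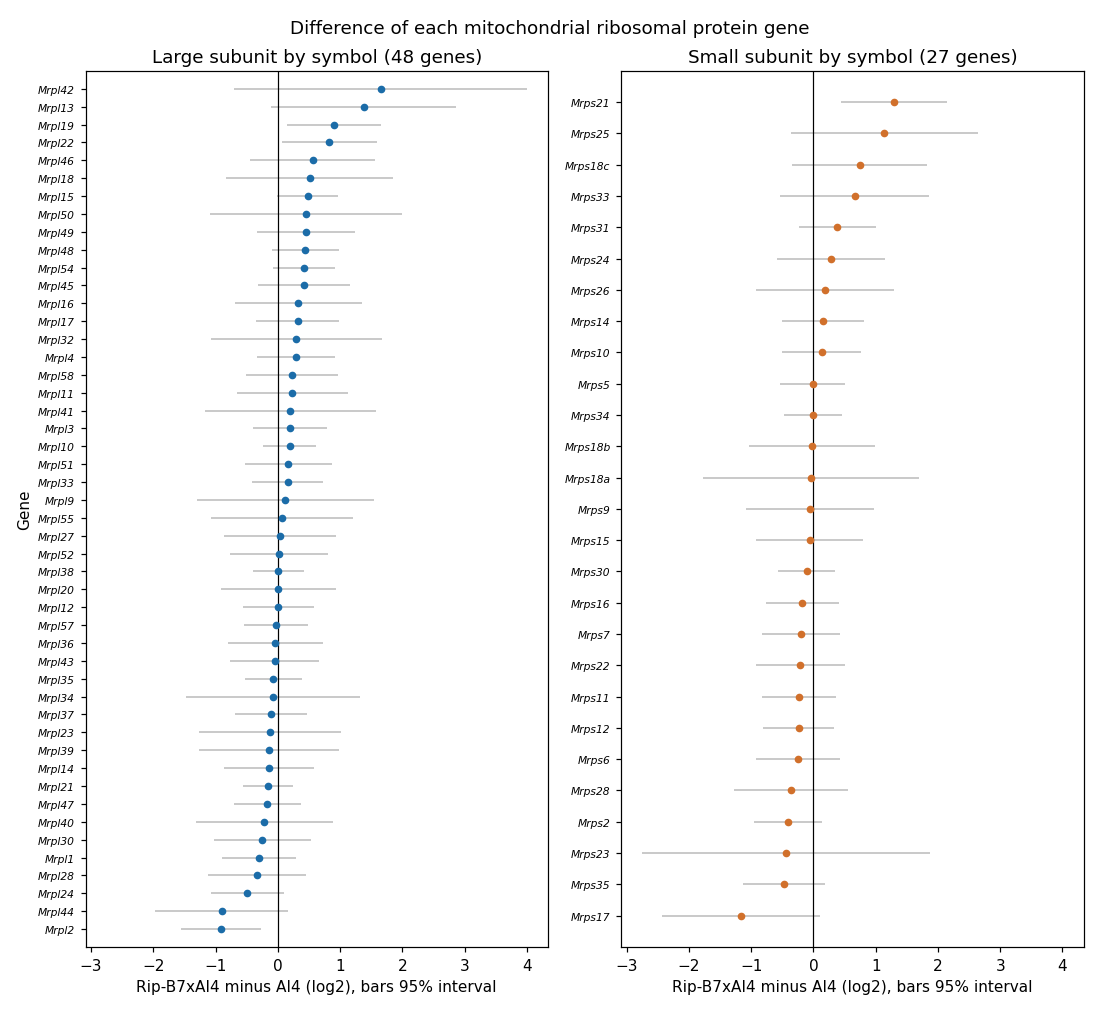
Difference between Rip-B7xAI4 and AI4 (x axis, log2) for the 75 tested genes (y axis), with large subunit genes on the left and small subunit genes on the right. Points are differences and bars are 95% intervals by limma from 3 arrays per group, and only the intervals of Mrps21, Mrpl19, Mrpl22 and Mrpl2 leave out 0.

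The promoters of these genes were read for letters known to bind the factors tied to mitochondrial biogenesis. RefSeq promoters (build GRCm38.p6, 250 bases before to 50 bases after the start, the first listed per gene) were at hand for 66 of the 75 tested genes. On either strand, CCGGAAG, the core bound by ETS factors such as Gabpa, was found in 23 of 66 (34.8%), against 9.12% of 27025 promoters of all genes and 11.9% of 17492 promoters of protein-coding genes. GCGCATGCG, a core of the NRF1 motif, was found in 7 (10.6%), against 1.81% and 2.41%. AAGATGGCG, a core of the YY1 motif, was found in 7 (10.6%), against 1.49% and 1.94%. The E-box CACGTG, which Myc and Max bind, was found in 5 (7.58%), against 7.24% and 7.90%. A match describes the letters and is not a site of binding. The median difference of genes with the ETS core was 0.04 and of those without it -0.04. For the NRF1 core these medians were 0.19 and -0.03, and for the E-box and for the YY1 core they were -0.04 and 0.01.

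Of the 4 genes with an unadjusted p under 0.05, promoters were at hand for 3. They are shown because these are among the genes with the lowest p, in either direction, and their motifs differ. Each is given 5′ to 3′ on the gene's own strand, in build GRCm38.p6, with matches to any of the 4 motifs in capitals. Mrps21 lies on the minus strand (chr3:95871465-95871764), Mrpl22 on the plus strand (chr11:58171414-58171713) and Mrpl2 on the plus strand (chr17:46645971-46646270).
Mrps21: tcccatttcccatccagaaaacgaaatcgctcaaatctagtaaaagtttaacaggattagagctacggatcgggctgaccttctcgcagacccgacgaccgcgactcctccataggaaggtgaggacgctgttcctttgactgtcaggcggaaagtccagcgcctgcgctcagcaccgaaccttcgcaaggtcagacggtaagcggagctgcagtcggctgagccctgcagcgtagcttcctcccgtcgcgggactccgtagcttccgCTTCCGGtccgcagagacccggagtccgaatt
Mrpl22: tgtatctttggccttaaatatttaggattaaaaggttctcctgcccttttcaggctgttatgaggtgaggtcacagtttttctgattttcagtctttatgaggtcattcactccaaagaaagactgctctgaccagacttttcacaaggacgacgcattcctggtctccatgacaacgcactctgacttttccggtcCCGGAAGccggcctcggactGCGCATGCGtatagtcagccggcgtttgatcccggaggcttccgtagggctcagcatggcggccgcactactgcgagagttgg
Mrpl2: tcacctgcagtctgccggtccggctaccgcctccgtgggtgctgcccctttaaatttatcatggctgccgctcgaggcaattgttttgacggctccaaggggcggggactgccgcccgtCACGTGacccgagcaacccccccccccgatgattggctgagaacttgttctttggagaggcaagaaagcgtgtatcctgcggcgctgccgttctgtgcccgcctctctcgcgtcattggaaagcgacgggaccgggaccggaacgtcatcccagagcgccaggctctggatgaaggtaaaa

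The Mrps21 promoter held the ETS core on the opposite strand, printed as CTTCCGG, and the Mrpl22 promoter held the ETS core and then the NRF1 core. Both genes read higher in all Rip-B7xAI4 arrays than in any AI4 array. Of the 3 promoters listed for Mrpl2, only the first was read. It held only the E-box, and Mrpl2 read lower in all Rip-B7xAI4 arrays. With 3 genes chosen by their p, this is a description and no relation between motif and difference was tested.

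The samples themselves were checked against their labels. T cell markers were high in all arrays, with a mean log2 of 9.78 to 10.46 in Rip-B7xAI4 and 9.88 to 10.45 in AI4 over 11 genes, all above the limit for dim genes. Myeloid markers, 21 of 22 above that limit, averaged 8.45, 6.17 and 8.63 in Rip-B7xAI4 replicates 1, 2 and 3 and 5.89 to 6.57 in AI4. B cell markers, 7 of 8 above the limit, averaged 5.60 to 6.70 in Rip-B7xAI4 and 5.68 to 6.15 in AI4. Beta and islet cell markers (9 of 10 above the limit) averaged 5.64 to 6.03 in Rip-B7xAI4 and 5.93 to 6.20 in AI4. NK cell markers, 2 of 5 above the limit, averaged 6.86, 6.26 and 7.18 in Rip-B7xAI4 and 6.12, 5.67 and 5.79 in AI4. The 2 NK cell markers above the limit were Eomes and Tyrobp, and Tyrobp is also in the myeloid list. CD4 and regulatory T cell markers (5 of 6) averaged 6.39 to 6.44 in Rip-B7xAI4 and 6.17 to 6.33 in AI4. Within that list the genes went both ways. Il2ra read 6.25 to 6.97 in Rip-B7xAI4 and 5.27 to 6.32 in AI4, but Foxp3 read 6.75 to 6.87 and 6.89 to 6.98. Endothelial and stromal markers (9 of 12) averaged 5.79 to 6.13 in Rip-B7xAI4 and 6.13 to 6.46 in AI4. Acinar cell markers (8 of 11) averaged 5.90 to 6.07 in Rip-B7xAI4 and 6.01 to 6.12 in AI4. Erythroid and platelet markers (3 of 4) averaged 7.04, 5.33 and 7.04 in Rip-B7xAI4 replicates 1, 2 and 3, and 6.30, 5.77 and 5.63 in AI4. Their high arrays were thus those with high myeloid markers. Cell division genes averaged 8.46, 7.90 and 7.34 in Rip-B7xAI4 and 7.01, 6.13 and 6.21 in AI4. AI4 replicate 1 stood apart, with rank correlations over all tested genes of 0.643 to 0.751 with the other arrays, which correlated at 0.745 to 0.885 with each other. Vtcn1, the gene of B7x, read 6.13 to 6.33 in Rip-B7xAI4 and 5.92 to 6.28 in AI4. That checks nothing about the transgene, which the promoter directs to beta cells.

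The array that stood apart also did so in these genes. AI4 replicate 1 was the array farthest from the gene's median in 27 of 75 mitochondrial ribosomal protein genes (36%), against 33.4% of all genes tested. In 7 genes it lay more than 1 log2 unit outside the range of the other 5 arrays, which is 9.33% of these genes, against 3.98% of all genes tested. Of those, Mrpl42 (a large subunit protein found only in mitochondria) read 5.28 in AI4 replicate 1 and 8.74 to 9.67 in the other arrays. Mrps33 read 7.54 there and 9.16 to 9.58 elsewhere, and Mrpl32 and Mrpl46 were low in the same array. Mrps23, by contrast, read 10.39 in AI4 replicate 1 and 6.67 to 8.11 elsewhere, with Mrps17 and Mrpl44 also high there. This array was thus high in some of the genes and low in others. Among the other arrays, the count past the same margin was 3 for Rip-B7xAI4 replicate 1 (4%, against 1.92% of all genes tested). It was 0 for each of the rest, against 0.315% to 0.932% of all genes tested.

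**Figure D2:**
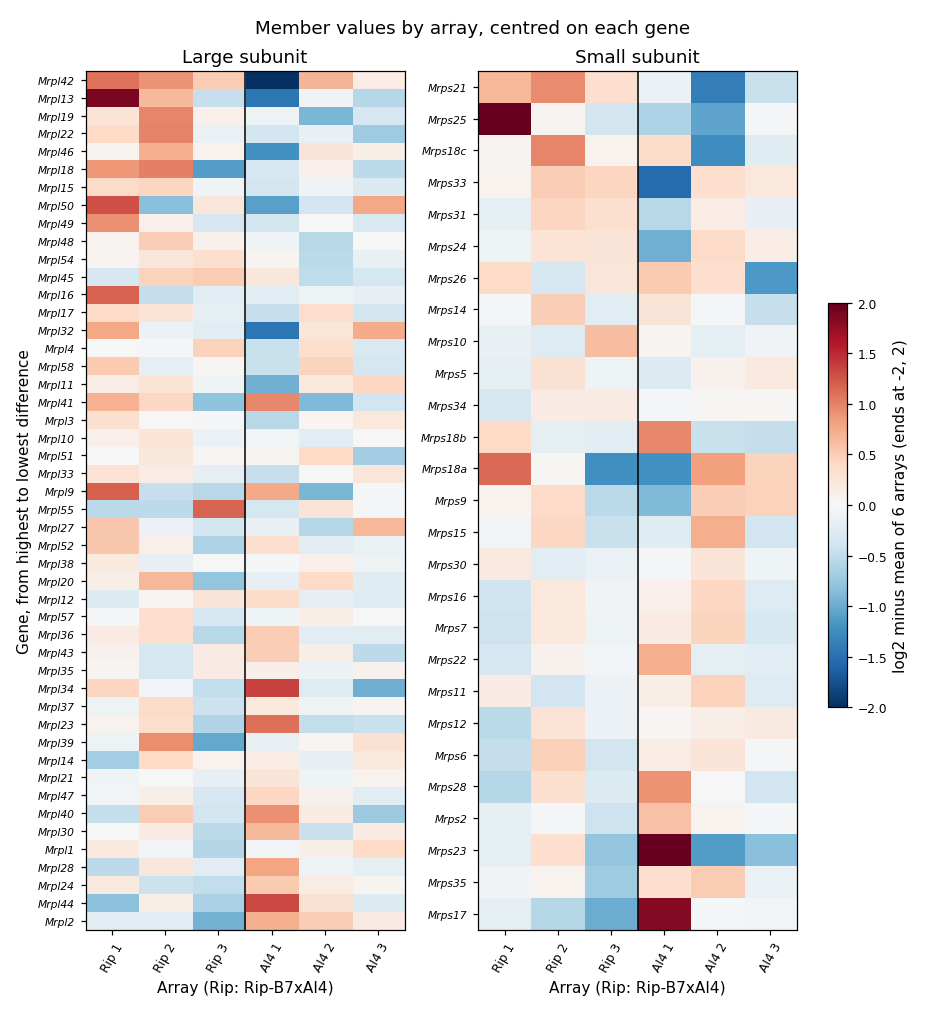
Log2 value of each tested gene (rows, from highest to lowest difference) in each array (columns, Rip-B7xAI4 left and AI4 right), as colour after subtracting the gene's mean over 6 arrays, with the scale ending at -2 and 2. The strongest colours stand in AI4 replicate 1 (Mrpl42 low, Mrps23 and Mrps17 high) and Rip-B7xAI4 replicate 1 (Mrps25 and Mrpl13 high).

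To compare the subunits, each gene was centred on its mean over the 6 arrays, because levels of different probes cannot be compared. The 48 large subunit genes then averaged 0.23, 0.19 and -0.20 in Rip-B7xAI4 replicates 1, 2 and 3, and -0.05, -0.06 and -0.10 in AI4. Replicates 1 and 2 of Rip-B7xAI4 were above all AI4 arrays and replicate 3 was below them. The 27 small subunit genes averaged 0.03, 0.18 and -0.18 in Rip-B7xAI4 and 0.12, 0.01 and -0.16 in AI4, so that the groups overlapped throughout. The large minus the small subunit mean was 0.21, 0.00 and -0.02 in Rip-B7xAI4, against -0.17, -0.07 and 0.06 in AI4. The last AI4 value lay above 2 of the Rip-B7xAI4 values.

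The mean difference was 0.14 for the large subunit and 0.02 for the small, which leaves 0.12 between them, equal to the pooled SD of that contrast between arrays (0.12). A difference above 0 was found in 30 of 48 large subunit genes (62.5%) and 9 of 27 small subunit genes (33.3%). Over all genes tested that share was 39%. No test was run on these means. Rip-B7xAI4 replicates 1 and 3, the arrays with high myeloid markers, had the highest and the lowest large subunit mean, and the part of other cells in this was not tested. With Rip-B7xAI4 replicate 2 alone against AI4, an alternative chosen after seeing the data, the large subunit mean difference was 0.26 and the small subunit mean difference 0.19. Without AI4 replicate 1 they were 0.15 and 0.09.

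**Figure D3:**
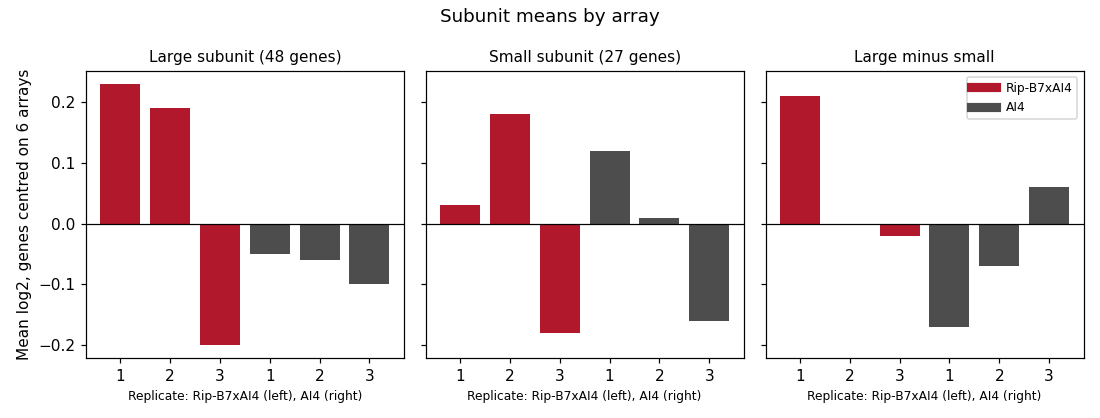
Mean log2 value (y axis) of large subunit genes, of small subunit genes, and the large minus the small mean, by array (x axis, Rip-B7xAI4 red, AI4 grey), after centring each gene on 6 arrays. The large subunit bars of Rip-B7xAI4 stand at 0.23, 0.19 and -0.20, around those of AI4 at -0.05, -0.06 and -0.10.

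Symbols do not always tell where a protein sits. In structures of the mammalian ribosome the products of Mrps18a and Mrps30 belong to the large subunit, and that of Mrps36 is now known as a subunit of the oxoglutarate dehydrogenase complex. With genes placed by structure the mean differences were 0.13 for the large and 0.03 for the small subunit. Mrps18a read 8.70, 7.58 and 6.34 in Rip-B7xAI4 and 6.36, 8.39 and 8.01 in AI4, and Mrps30 read 6.52, 6.11 and 6.20 in Rip-B7xAI4 and 6.30, 6.59 and 6.25 in AI4. The groups overlapped in both genes. Mrps18a belongs with Mrps18b and Mrps18c to a family of 3 relatives of a single bacterial protein. Mrps18b differed by -0.02 ± 0.42 (SE), Mrps18a by -0.04 ± 0.73 and Mrps18c by 0.74 ± 0.45, none of which passed. Mrps18c read 9.86, 10.78 and 9.88 in Rip-B7xAI4, against 10.18, 8.57 and 9.57 in AI4. Its difference was 0.30 without AI4 replicate 2 and 1.11 without AI4 replicate 1.

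In the stalk of the large subunit, which recruits translation factors, 3 genes were measured. Mrpl12, whose product also binds the mitochondrial RNA polymerase, read 7.31, 7.60 and 7.84 in Rip-B7xAI4, against 7.95, 7.42 and 7.34 in AI4. The groups covered nearly the same range, and the difference was 0.01 with a 95% interval of -0.56 to 0.58. Mrpl10, which anchors Mrpl12, differed by 0.19 ± 0.18 (SE) and Mrpl11, at the stalk base, by 0.23 ± 0.37. Without AI4 replicate 1, which read 6.40 for Mrpl11 while the other arrays read 7.28 to 7.78, the Mrpl11 difference was -0.20.

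Around the tunnel through which the new chain leaves, Mrpl22 lines the wall. It read 6.01, 6.61 and 5.48 in Rip-B7xAI4, against 5.24, 5.47 and 4.90 in AI4. The groups did not overlap, but Rip-B7xAI4 replicate 3 lay only just above AI4 replicate 2. The difference of 0.83 ± 0.32 (SE) had a limma adjusted p = 0.553. It was 0.54 without Rip-B7xAI4 replicate 2 and 1.11 without Rip-B7xAI4 replicate 3. Mrpl24, at the tunnel exit, read 8.95, 8.33 and 8.27 in Rip-B7xAI4 and 9.29, 8.91 and 8.82 in AI4, with a difference of -0.49 ± 0.25. Mrpl44, a large subunit protein related to RNase III enzymes, read 6.56, 7.50 and 6.73 in Rip-B7xAI4 and 8.70, 7.68 and 7.10 in AI4. Its difference of -0.90 ± 0.45 was -0.47 without AI4 replicate 1 and -1.26 without AI4 replicate 3. Of the 5 genes listed for this region, which need not be all of it, 2 had a difference above 0 and 3 below.

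In the central protuberance, the crown of the large subunit, 6 of the 7 genes listed had a difference above 0, with a median of 0.04. Mrpl48 read 7.74, 8.17 and 7.75 in Rip-B7xAI4, against 7.58, 7.11 and 7.67 in AI4. The groups did not overlap, with gaps under the spread within either group, and the difference was 0.44 ± 0.23 (SE). It was 0.27 without AI4 replicate 2 and 0.54 without AI4 replicate 3. The only Mrpl48 probe is numbered apart from those of other mitochondrial ribosomal protein genes on the same chromosome. Whether it reads the gene itself or a copy was not tested.

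The lowest p of any large subunit gene belonged to Mrpl2, the counterpart of a bacterial protein beside the peptidyl transferase centre. Mrpl2 read 6.15, 6.16 and 5.42 in Rip-B7xAI4, against 7.07, 6.85 and 6.53 in AI4. All Rip-B7xAI4 arrays were below all AI4 arrays, and the difference of -0.91 ± 0.27 (SE) had a limma adjusted p = 0.478. Mrpl19 went the other way, reading 6.64, 7.34 and 6.47 in Rip-B7xAI4 and 6.27, 5.45 and 6.04 in AI4. Its difference was 0.90 ± 0.31 and its adjusted p = 0.530 by limma.

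Other large subunit genes named by rank had less even values. Mrpl15 read 7.77, 7.82 and 7.31 in Rip-B7xAI4 and 7.03, 7.33 and 7.11 in AI4, with replicate 3 of Rip-B7xAI4 just below replicate 2 of AI4 (difference 0.48 ± 0.20, SE). Mrpl13 read 9.05, 7.81 and 6.71 in Rip-B7xAI4 and 5.72, 7.10 and 6.59 in AI4. Its difference of 1.38 ± 0.62 was 0.79 without Rip-B7xAI4 replicate 1, the highest array, and 1.96 without Rip-B7xAI4 replicate 3. Mrpl54 differed by 0.42 ± 0.21 and Mrpl1, whose bacterial counterpart forms the mobile stalk near the tRNA exit, by -0.30 ± 0.25. The Mrpl1 difference was -0.08 without Rip-B7xAI4 replicate 3 and -0.47 without Rip-B7xAI4 replicate 1.

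In the small subunit, Mrps21 had the lowest p of all 75 genes. It read 9.41, 9.69 and 9.07 in Rip-B7xAI4, against 8.63, 7.35 and 8.29 in AI4. The groups did not overlap, with AI4 replicate 2 far below the rest. The difference of 1.30 ± 0.36 (SE) had a 95% interval of 0.45 to 2.15 and a limma adjusted p = 0.462.

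Mrps17, the counterpart of a bacterial protein that binds the ribosomal RNA early in assembly, read 6.74, 6.37 and 5.95 in Rip-B7xAI4 and 8.77, 6.90 and 6.88 in AI4. Its groups did not overlap either, though the gap was small and AI4 replicate 1 stood far above the other AI4 arrays. The difference of -1.16 ± 0.53 (SE) was -0.54 without that array and -1.48 without AI4 replicate 3. Mrps25 read 8.30, 6.32 and 5.90 in Rip-B7xAI4 and 5.66, 5.21 and 6.23 in AI4. Its difference of 1.14 ± 0.63 was 0.41 without Rip-B7xAI4 replicate 1 and 1.61 without Rip-B7xAI4 replicate 3.

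Mrps12, whose product lies at the decoding centre, read 7.64, 8.47 and 8.05 in Rip-B7xAI4 and 8.22, 8.31 and 8.36 in AI4. The AI4 values lay within the Rip-B7xAI4 range, and the difference was -0.24 ± 0.24 (SE). Mrps2 differed by -0.41 ± 0.23 (-0.21 without AI4 replicate 1) and Mrps35 by -0.47 ± 0.28 (-0.24 without Rip-B7xAI4 replicate 3). Without AI4 replicate 3 the Mrps2 and Mrps35 differences were -0.53 and -0.66. None of these genes passed.

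**Figure D4:**
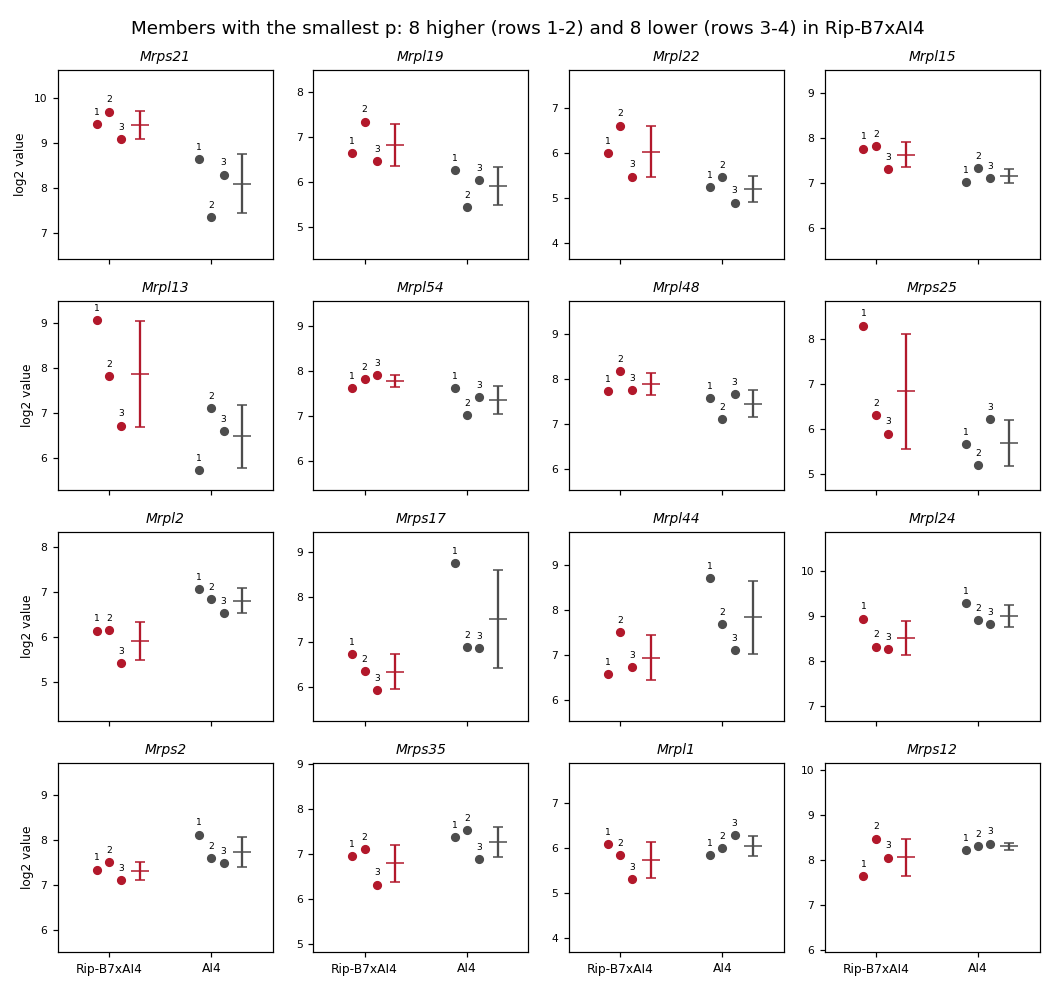
Log2 value (y axis, same span in every panel) of 16 genes, the 8 with the smallest p in each direction, by group (x axis). Points are arrays numbered by replicate, bars are the group mean and SD of 3 arrays, and single arrays lie far from their group in Mrpl13, Mrps25 and Mrps17.

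Of the genes not tested, Mrps27 read 3.92, 4.18 and 4.34 in Rip-B7xAI4 and 5.02, 4.41 and 4.36 in AI4, and Mrps36 averaged 5.25 ± 0.29 in Rip-B7xAI4 and 5.39 ± 0.41 in AI4 (SD, n = 3 each). Both had a mean below the limit of 5.471 for dim genes. A further 1 probe was annotated to a mitochondrial ribosomal protein gene together with another gene, so it gave no member.

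For 8 of the 77 genes the array held 2 probes, so that 2 readings under the same symbol could be compared. The 2 probes of Mrpl23 read nearly the same in every array, with differences of -0.12 and -0.08, and those of Mrps33 gave 0.66 and 0.55. Without AI4 replicate 1 the Mrps33 difference of 0.66 was 0.06, and without AI4 replicate 2 it was 1.00. For both genes the probes correlated at 1.00 over the 6 arrays, which are the same RNA samples. Probes of Mrpl27 gave 0.04 and 0.29, those of Mrpl41 0.20 and 0.08, those of Mrpl51 0.17 and 0.34, those of Mrps5 -0.01 and -0.22, and those of Mrps36 -0.14 and -0.11. Among these 8 genes, only the probes of Mrpl47 gave opposite signs, at -0.17 and 0.05, and they correlated at 0.22. Values of genes with near-identical copies elsewhere in the genome are uncertain on such arrays, because copies can share probe signal. The kept probes of Mrpl23, Mrpl27, Mrpl41, Mrpl51 and Mrps33 are numbered apart from those of other mitochondrial ribosomal protein genes on the same chromosome. Whether they read the gene itself or a copy was not tested.

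The rest of the mitochondrial gene expression machinery was described from 6 gene lists. Of 91 tested genes in them, 0 were called, with a median difference of -0.08. At an unadjusted p under 0.05, 2 were higher (2.20%, against 5.56% of all genes tested) and 3 lower (3.30%, against 3.17%). Among translation factors, Tufm, the factor that brings transfer RNA to the ribosome, read 6.68, 7.07 and 6.71 in Rip-B7xAI4, against 6.34, 6.25 and 6.13 in AI4. Its groups did not overlap, and the difference of 0.58 ± 0.18 (SE) had a limma adjusted p = 0.497. Gfm1, the elongation factor that moves the ribosome along, read 6.92, 6.95 and 7.39 in Rip-B7xAI4 and 7.88, 7.71 and 7.65 in AI4, a difference of -0.66 ± 0.20. These factors of the same elongation cycle thus lay on opposite sides of 0, as Mrpl2 and Mrpl19 did. The release factor gene Mtrf1l differed by -0.68 ± 0.44, but by -0.22 without AI4 replicate 1 and by -0.95 without Rip-B7xAI4 replicate 1.

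Among assembly genes, Tfb1m, a methyltransferase of the small subunit RNA, read 5.86, 6.64 and 5.67 in Rip-B7xAI4 and 5.46, 4.98 and 5.19 in AI4. The difference was 0.85 ± 0.29 (SE), or 0.56 without Rip-B7xAI4 replicate 2 and 1.05 without Rip-B7xAI4 replicate 3. Nsun4, another ribosomal RNA methyltransferase, read 5.23, 5.43 and 5.61 in Rip-B7xAI4 and 6.41, 5.74 and 7.14 in AI4, so that its groups did not overlap. Mrm3, which methylates the large subunit RNA, differed by -0.52 ± 0.19. The list of 22 tested assembly genes had a median of -0.07.

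Of the 19 genes in the list of mitochondrial tRNA synthetases, 13 had a difference below 0, with a median of -0.08, close to that of all genes tested. That list also holds Qrsl1, Gatb and Gatc, which are not synthetases. Wars2, Tars2 and Aars2 differed by -0.44 ± 0.19 (SE), -0.41 ± 0.24 and -0.35 ± 0.22. In the list of mitochondrial DNA transcription and RNA genes, Polrmt, the RNA polymerase, differed by -0.38 ± 0.17 and Tfam, which packs mitochondrial DNA, by 0.31 ± 0.26. Elac2 and Supv3l1, enzymes that process and degrade mitochondrial RNA, differed by -0.32 ± 0.17 and -0.35 ± 0.19.

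Ribosomal proteins with other kinds of names were few. Dap3, a GTP-binding protein of the small subunit, differed by -0.41 ± 0.49 (SE), Ptcd3 by -0.29 ± 0.45 and Gadd45gip1 by -0.21 ± 0.20, and all 4 genes of that list had a difference below 0. The Dap3 difference was -0.05 without AI4 replicate 2, and without AI4 replicate 1 that of Gadd45gip1 was -0.04 and that of Ptcd3 0.14. Among regulators known to act on nuclear genes for mitochondria, Myc read 8.89, 9.24 and 7.59 in Rip-B7xAI4 and 9.24, 8.86 and 8.29 in AI4. Its groups overlapped throughout. Its partner Max differed by 0.62 ± 0.29 and its antagonist Mnt by -0.37 ± 0.18. Gabpa, an ETS factor, read 9.81, 9.15 and 8.80 in Rip-B7xAI4 and 6.17, 8.79 and 8.63 in AI4. The lowest Rip-B7xAI4 value was 8.80 and the highest AI4 value 8.79. The difference of 1.39 ± 0.71 was 0.54 without AI4 replicate 1 and 1.85 without AI4 replicate 2.

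Related gene lists are given beside the mitochondrial ribosome. Of 91 tested nuclear oxidative phosphorylation genes, 65 had a difference above 0, with a median of 0.32. All Rip-B7xAI4 arrays were above all AI4 arrays for 22 of them (24.2%, against 5.33% of mitochondrial ribosomal protein genes and 5.99% of all genes tested). Cox7b and Uqcrb, subunits of the respiratory chain, differed by 0.70 ± 0.17 (SE) and 0.60 ± 0.16, and Uqcrq by 0.65 ± 0.20. The mean of this list was 0.32, but 0.15 after quantile normalization.

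Of 54 tested cytosolic ribosomal protein genes, 9 had a difference above 0 and the median was -0.11, near that of all genes. In that list Rps27l differed by 1.33 ± 0.43 (SE), Rpl7 by -0.30 ± 0.18 and Rpl36a by -0.25 ± 0.17. All 31 tested cell division genes had a difference above 0, with a median of 1.53. By limma 0 were called, and 21 were higher at an unadjusted p under 0.05 (67.7%, against 5.56% of all genes tested). The differences between these lists were not tested, since the lists were chosen with earlier results of these arrays known.

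**Figure D5:**
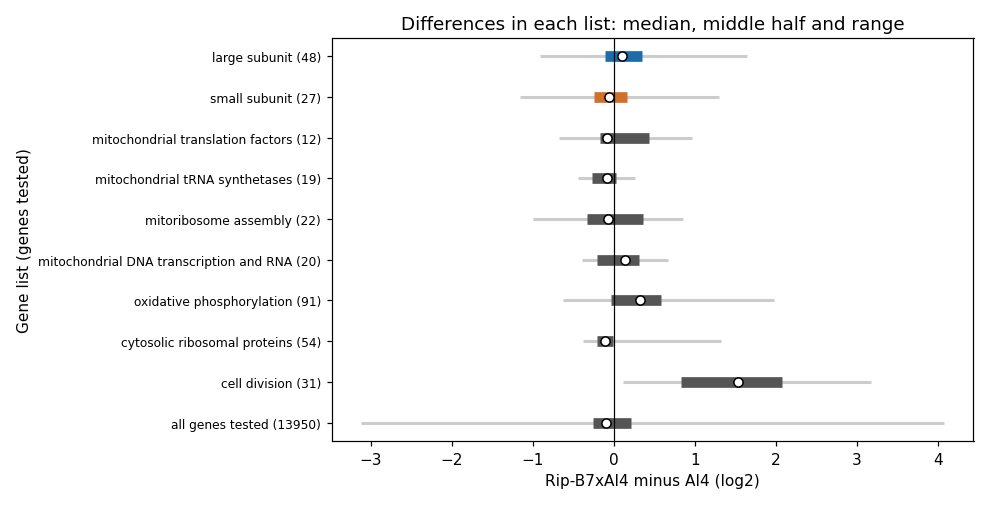
Differences (x axis, Rip-B7xAI4 minus AI4, log2) in each gene list (y axis, genes tested in brackets), with the median as a point, the middle 50% of genes as a thick bar and the range as a thin line. Medians are 0.10 for the large and -0.06 for the small subunit, 0.32 for oxidative phosphorylation, 1.53 for cell division and -0.10 for all genes tested.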

How the data were processed

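RNA from the sorted T cells was hybridised to 6 arrays. Affymetrix Expression Console is named in the submitters' processing notes; version and algorithm: not given in the sources used here. All deposited values lie between 2.29 and 13.61 and were taken as log2 from that range, with array medians of 5.94 to 6.10, and were not normalized further. Of 28325 probes, 21760 had 1 gene symbol in the platform annotation, and only these were named. Groups came from the sample titles. The probe with the highest mean was kept for each gene. The 30% of genes with the lowest mean (under 5.471) were left out, leaving 13950 genes. They were fitted with limma 3.58.1 (lmFit, eBayes) in R 4.3.3, with group as the only term and two-sided p adjusted by Benjamini and Hochberg. Standard errors and 95% intervals are limma's. On simulated data of 13950 genes with 200 changed, the share recovered was 21.0% at a log2 change of 1 and 84.7% at a log2 change of 2. The simulated noise was normal and independent, with limma's spread for each gene and no array standing apart. Changed genes were drawn from all genes tested, whose median SE was 0.23, against 0.31 for the members. These shares are therefore not those of the members.

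Genes named are the 8 tested members with the smallest p in each direction, a set fixed by role, members with several probes or below the limit, up to 3 genes of each other list by smallest p, and Tfam, Polrmt, Tufm, Dap3 and Myc. Others named were chosen after their values were seen. The members, lists and alternatives were chosen with earlier results of these data known. Replicates are labelled as biological. Same-numbered arrays of both groups did not deviate together (correlations of -0.08, 0.06 and -0.22), so the numbers were not taken as pairs. No measure of background was used, and array number, not a count depth, limits the precision.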

Additional observations from a re-analysis of the deposited data

How the results depend on the processing

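In the alternative fits with over 1 array in each group, no mitochondrial ribosomal protein gene passed an adjusted p of 0.05 by limma, and the lowest adjusted p among them lay between 0.101 with array weights and 0.830 without Rip-B7xAI4 replicate 1. The fit of Rip-B7xAI4 replicate 2 alone takes its spread from the AI4 arrays and assumes that the lone array varies like them. Only its differences are given. The number of all genes called, 1, was 0 with the replicate block, 38 with array weights, and 0 to 22 with an array left out. It was 22 without Rip-B7xAI4 replicate 2 and 2 without AI4 replicate 1. Members higher at an unadjusted p under 0.05, 3, were 5 under median centring and 8 with array weights. They were 1 to 7 with an array left out (1 without Rip-B7xAI4 replicate 2, 7 without Rip-B7xAI4 replicate 3). Members lower on that rule, 1, were 2 with the replicate block, after quantile normalization and with array weights. With an array left out they were 1 to 3. There were 3 without Rip-B7xAI4 replicate 2 or AI4 replicate 3, and 2 without Rip-B7xAI4 replicate 1 or AI4 replicate 2. Both directions together, members at that p were 8% under median centring and 13.3% with array weights, against 8.09% and 17.2% of all genes tested. They were 5.33% with the replicate block and 6.67% after quantile normalization, against 7.12% and 8.22%. Without Rip-B7xAI4 replicates 1, 2 and 3 they were 6.67%, 5.33% and 10.7%, against 5.48%, 7.81% and 9.05%. Without AI4 replicates 1, 2 and 3 they were 6.67%, 8% and 6.67%, against 7.89%, 6.36% and 11.2%. Non-overlapping members above and below, 4 and 2, were 27 and 10 with Rip-B7xAI4 replicate 2 alone. They were 4 to 11 and 3 to 8 with an array left out, as fewer arrays overlap less. Those below were 5 after quantile normalization. For non-overlap in these settings, the shares of all genes tested are not given here. These non-overlap counts therefore cannot show whether the members differed from other genes. The large subunit mean difference was 0.06 to 0.28, the small -0.07 to 0.11 and the contrast 0.05 to 0.18 with an array left out, and after quantile normalization the means were 0.04 and -0.10. The small subunit mean was 0.19 with Rip-B7xAI4 replicate 2 alone, and the oxidative phosphorylation mean 0.15 after quantile normalization. With the replicate block the large minus small contrast was 0.12, and no member was called, while at an unadjusted p under 0.05 Mrps17 took the place of Mrpl19. For the moves above whose cause is not stated, the cause was not tested.

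The sign turned in some named genes, none of them called. After quantile normalization these were Mrpl12 (-0.13), Mrpl27 (-0.18) and Mrpl51 (-0.05), and under median centring Mrps18a (0.02), Mrps18b (0.05) and Mrps5 (0.06). With array weights they were Mrpl23 (0.42), Mrps18b (0.19), Mrps5 (0.07), Myc (0.05) and Ptcd3 (0.38). With Rip-B7xAI4 replicate 2 alone they were Mrpl23 (0.30), Mrpl27 (-0.10), Mrpl47 (0.03), Mrps12 (0.17), Mrps5 (0.30) and Myc (0.44). With an array left out, differences ran between -0.20 and 0.49 for Mrpl11, between -0.12 and 0.20 for Mrpl12, between -0.39 and 0.40 for Mrpl23, between -0.23 and 0.38 for Mrpl27, between -0.19 and 0.73 for Mrpl41, between -0.14 and 0.40 for Mrpl51, between -0.66 and 0.56 for Mrps18a, between -0.26 and 0.46 for Mrps18b, between -0.16 and 0.09 for Mrps5, between -0.56 and 0.27 for Myc and between -0.78 and 0.14 for Ptcd3. Of 56 named genes tested, 38 had a difference that moved by over 1.5 times or turned without some array, most often AI4 replicate 1 (22 genes). The 3 arrays per group limit every value. A pseudocount was not run, because the deposited values were already on a log scale.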
